A study of Homo sapiens with 6 samples.

Results

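The nuclear-encoded subunits of the respiratory chain and ATP synthase are the protein parts of complexes I to V that are transcribed from chromosomes in the nucleus rather than from mitochondrial DNA. They were taken by gene symbol: NDUF genes for complex I, SDHA to SDHD for complex II, UQCR genes and CYC1 for complex III, COX4 to COX8 genes for complex IV and ATP5 genes for complex V. Of 58830 genes in the table, 138 symbols matched and 52 of these were pseudogene symbols that were left out, which gave 86 genes: 36 of complex I, 4 of complex II, 10 of complex III, 17 of complex IV and 19 of complex V. NDUFA4 and NDUFA4L2 were counted with complex IV. The symbols decided membership, so ATP5S and ATP5SL are included although they are not subunits, as is ATP5J2LP, which GENCODE 29 lists as a processed pseudogene and whose symbol did not mark it as one. In turn, COX4I1, NDUFAB1, ATPIF1, USMG5 and C14orf2 fall outside the rule.

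RNA-seq of total RNA was available for 6 libraries, 3 from wild-type cells (DE) and 3 from cells with the long non-coding RNA GATA6-AS1 knocked down (KD). Both groups were HuES8 cells, a human embryonic stem cell line, driven toward definitive endoderm, the germ layer that gives rise to gut, liver and pancreas. The medium was DMEM-F12 with 0.2% BSA, 100 ng/mL Activin A and, on day 1, 2.5 µM CHIR, followed by 2 days of Activin A without CHIR. The sources used here give neither the means of the knockdown nor a control construct in the wild-type cells. The labels do not tell whether the 3 replicates of a group were grown apart, and the p-values then measure only how these samples vary, which may be technical.

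Complex I takes electrons from NADH, complex II from succinate, and both pass them through coenzyme Q to complex III and then through cytochrome c to complex IV, which reduces oxygen. Complexes I, III and IV pump protons, and complex V uses the gradient to make ATP. Complex II is encoded wholly in the nucleus, whereas the other complexes also hold subunits made from mitochondrial DNA. Several muscle, heart and testis forms of complex IV subunits exist beside the common ones. Pluripotent cells rely strongly on glycolysis, and respiration rises as most lineages mature.

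Promoters of these genes are known for short sites bound by NRF1, by ETS factors such as GABPA, by YY1 and by CREB. RefSeq windows of 300 bases on GRCh38.p14, from 250 before to 50 after the start site, matched 67 of the 86 genes. Windows of 4 genes are shown, with exact matches on either strand in capitals: CCGGAAG (ETS), AAGATGGC (YY1), TGACGTCA (CRE) and the palindrome of NRF1, which is the first run of capitals in SDHD. UQCRC1 was the member that passed the test between the groups, SDHB and SDHD belong to the complex made only of nuclear products, and COX8A was among the members that varied most between replicates. They lie at chr3:48609597-48609896 (minus strand), chr1:17053983-17054282 (minus), chr11:112086623-112086922 (plus) and chr11:63974370-63974669 (plus).
UQCRC1: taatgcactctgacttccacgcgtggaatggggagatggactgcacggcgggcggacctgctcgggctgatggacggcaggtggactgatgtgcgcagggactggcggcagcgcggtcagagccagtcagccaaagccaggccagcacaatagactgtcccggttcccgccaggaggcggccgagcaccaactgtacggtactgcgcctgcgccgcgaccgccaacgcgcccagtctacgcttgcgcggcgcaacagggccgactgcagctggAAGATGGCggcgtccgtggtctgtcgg
SDHB: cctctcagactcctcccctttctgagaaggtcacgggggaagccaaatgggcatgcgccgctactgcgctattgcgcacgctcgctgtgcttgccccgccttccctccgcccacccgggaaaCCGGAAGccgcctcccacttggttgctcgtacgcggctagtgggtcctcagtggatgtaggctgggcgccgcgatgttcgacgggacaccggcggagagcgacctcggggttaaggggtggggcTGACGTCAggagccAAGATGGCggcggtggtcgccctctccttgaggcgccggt
SDHD: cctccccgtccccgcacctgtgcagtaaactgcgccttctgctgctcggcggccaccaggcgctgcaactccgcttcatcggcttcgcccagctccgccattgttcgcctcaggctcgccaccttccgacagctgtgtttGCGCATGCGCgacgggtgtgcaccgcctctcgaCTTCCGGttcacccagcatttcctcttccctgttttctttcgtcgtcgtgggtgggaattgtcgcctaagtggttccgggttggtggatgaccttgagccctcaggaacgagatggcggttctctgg
COX8A: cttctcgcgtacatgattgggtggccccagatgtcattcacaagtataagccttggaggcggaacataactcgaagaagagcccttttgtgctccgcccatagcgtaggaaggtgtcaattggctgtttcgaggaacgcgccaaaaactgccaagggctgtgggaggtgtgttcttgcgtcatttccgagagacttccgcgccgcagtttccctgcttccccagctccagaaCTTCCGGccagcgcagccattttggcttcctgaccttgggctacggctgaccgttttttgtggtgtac
The UQCRC1 window holds a YY1 match after the start site. SDHB holds an ETS, a CRE and a YY1 match, SDHD an NRF1 and an ETS match, and COX8A an ETS match close to the start.

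At least 1 of these 4 motifs was present in 35 of the 67 members' windows (52.2%), against 29.9% of 10842 tested genes with a window and 17.7% of all 27305 genes with a window. The YY1 letters were in 12 members (17.9%, against 6.16% of tested genes), and in 10 of them a match lay after the start site (14.9%, against 3.86%). ETS letters were in 19 members (28.4%, against 20.9%), NRF1 letters in 4 (5.97%, against 2.54%) and CRE letters in 5 (7.46%, against 3.73%). TATAAA was in 7 members (10.4%, against 8.30%). No window of a member had overlapping ETS and YY1 matches. By complex, 16 of 31 windows of complex I, 2 of 3 of complex II, 4 of 7 of complex III, 4 of 14 of complex IV and 9 of 12 of complex V held at least 1 of the 4. These are matches of letters, not measured binding. The YY1 letters contain ATG, and whether matches after the start site lie at the start of the coding sequence was not checked.

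The 6 libraries differed in the share of mitochondrially encoded RNA. The 37 MT- rows took 28.5%, 24.6% and 38.0% of TPM in wild-type replicates 1 to 3 and 28.3%, 28.8% and 36.2% in knockdown replicates 1 to 3. Replicate 3 was highest in both groups, and the TPM (a level per length of transcript) of every nuclear gene is lowered by that share. TPM were therefore rescaled to 1000000 without the MT- rows, and all levels below are on this scale unless stated. GATA6-AS1 was at 544, 558 and 506 TPM in the wild-type libraries and 251, 229 and 198 in the knockdown libraries, and fell by 1.25 on the log2 scale (SE 0.094, adjusted p 0.00155). GATA6, a transcription factor of the endoderm, fell from 495 ± 29.2 to 316 ± 30.1 TPM (SD, n = 3 in each group).

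The 10 definitive endoderm markers were at 78.9 TPM (HHEX) or more in every library, so the labelled cell type had its markers in both groups. All 10 had a lower mean in the knockdown, and 9 were called lower at an adjusted p under 0.05 with limma (not EOMES). All 6 pluripotency markers had a higher mean, and 5 were called higher (not LIN28A). Of all tested genes, 4.23% were called lower and 4.57% higher. The summed levels were 37943 to 41124 TPM in the wild type and 25991 to 29995 in the knockdown for endoderm markers, and 2830 to 3035 and 3968 to 4233 for pluripotency markers. Most of the endoderm sum was CER1, at 32840 to 35606 TPM in the wild type and 22648 to 26137 in the knockdown. Among markers of other cells, the mesoderm sums were 192 to 210 and 244 to 259 TPM (of 5 tested, 2 called higher, 1 lower). They were 187 to 214 and 229 to 291 TPM for neuroectoderm (none of 4 called). For trophoblast and amnion they were 49.1 to 70.8 and 21.7 to 28.8 TPM (1 of 2 called lower). For fibroblast feeder markers they were 66.7 to 77.6 and 109 to 116 TPM (1 of 3 called higher). The gene called higher was THY1, at 18.3, 15.2 and 23.5 TPM in the wild type and 52.6, 58.2 and 70.5 in the knockdown. COL1A1 went the other way, with all 3 knockdown libraries below all 3 wild-type libraries, but did not pass (adjusted p 0.149 with limma). COL1A2 had overlapping groups, and COL3A1, LUM and DCN were under 1 TPM in every library. For striated muscle the sums were 4.34 to 6.43 and 5.52 to 11.3 TPM (1 of 1 called higher). In those lists MESP1, CGA, KRT7, CDX2, LUM, DCN, MYH6 and MYH7 were listed at 0 in at least 1 library. Other markers were well above 0 in every library. Among them were KDR (118 to 186 TPM) and PDGFRA (38.5 to 60.7) for mesoderm. NES (146 to 239 TPM) and ZIC1 (34.5 to 46.2) for neuroectoderm and GATA3 (20.4 to 69.6) for trophoblast and amnion were too. The marker shifts accompany each knockdown difference given below, and their part in it was not tested. In bulk RNA, fewer cells of a type and less RNA per cell cannot be told apart.

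Together the 86 genes took 0.904%, 0.908% and 0.902% of rescaled TPM in the wild-type libraries and 0.926%, 0.947% and 0.910% in the knockdown libraries. The groups did not overlap, and the summed level was 9047 ± 34.6 TPM in the wild type and 9278 ± 188 in the knockdown (SD, n = 3), a ratio of 1.03. On the deposited scale, with MT- rows kept, the members' share ranged from 0.559% to 0.685% and the groups overlapped.

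By complex, the summed level in wild-type and knockdown libraries was 3397 ± 114 and 3443 ± 72.3 TPM for complex I. It was 198 ± 3.26 and 213 ± 6.42 TPM for complex II, and 1290 ± 59.7 and 1275 ± 53.5 TPM for complex III. It was 1413 ± 77.4 and 1473 ± 115 TPM for complex IV, and 2748 ± 123 and 2873 ± 129 TPM for complex V. Only complex II had groups that did not overlap, at 201, 199 and 194 against 217, 218 and 206 TPM.

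**Figure D1:**
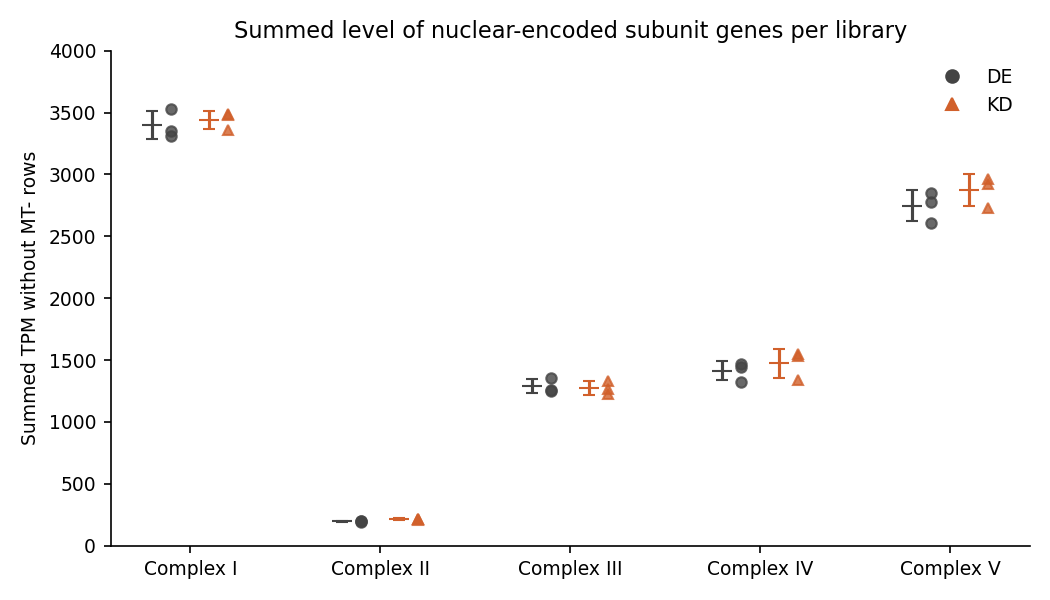
Summed TPM without MT- rows (vertical axis, from 0) of the members of complexes I to V, in 3 wild-type (DE, circles) and 3 knockdown (KD, triangles) libraries; bars are the mean ± SD. The groups overlap for complexes I, III, IV and V, and complex II is the lowest sum at 194 to 218 TPM.

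A large part of each sum came from few genes. The 3 highest genes held 48.0% of the sum in complex I, 84.4% in II, 65.4% in III, 50.5% in IV and 61.5% in V. ATP5B (ATP5F1B, the catalytic beta subunit of ATP synthase) held 45.8% of the complex V sum, and NDUFS5, an accessory subunit of complex I, held 32.6% of the complex I sum. These 2 genes made up 26.2% of the sum over all members. The highest member was SDHB in complex II (36.5%), UQCRH in complex III (25.5%) and COX8A in complex IV (20.6%). The tested members spanned mean levels of 2.16 to 1288 TPM, with a median of 64.5.

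**Figure D2:**
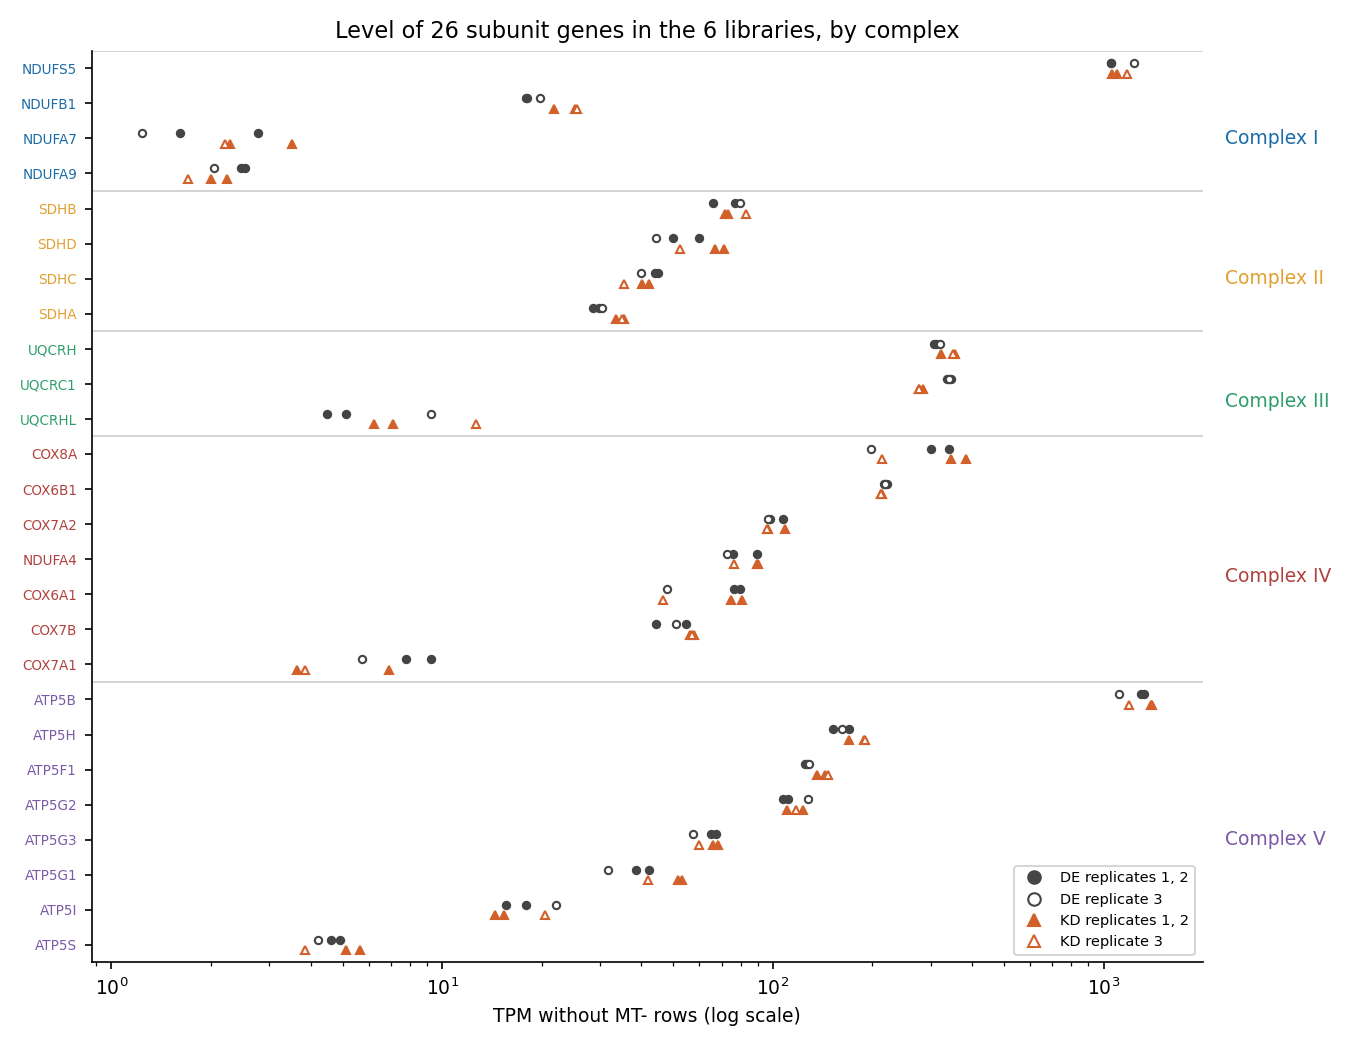
TPM without MT- rows (horizontal log axis) of the 26 members described in most detail, grouped by complex and ordered by mean level; circles are wild-type (DE) and triangles knockdown (KD) libraries, and open symbols are replicate 3 of each group. ATP5B and NDUFS5 lie far to the right of the others, and for most of these genes the ranges of the groups overlap.

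Subunits that occur in fixed proportion in the protein complex differed widely in their RNA. In complex I, NDUFV2, a core subunit with a role in electron transfer, was at 2.36 to 3.56 TPM. For 7 members, at least 40% of the main transcript lies under same-strand exons of other genes in GENCODE 29: NDUFB8, NDUFA11, NDUFA13, NDUFV2, NDUFA7, ATP5J2 and ATP5O. Their median level was 6.61 TPM (2.27 to 153), against 70.4 TPM for the 62 tested members with no such overlap. The sources used here do not say how reads under shared exons were counted, and the levels of these 7 genes are uncertain. The strand setting is not given either. With exons of either strand, NDUFB2 (83.4%), ATP5I (49.9%), NDUFB11 (45.8%) and NDUFA1 (44.5%) also pass 40%. These genes are among the 62, and their levels are uncertain too.

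Whether the knockdown changed the subunits' RNA was tested with limma in 79 of the 86 genes, those with at least 1 TPM in at least 3 libraries. The other 7 were ATP5J2LP, ATP5L2, COX6A2, COX6B2, COX7B2, COX8C and NDUFA4L2, at 0 to 1.04 TPM in each library. At an adjusted p threshold of 0.05, 1 of 79 members was lower in the knockdown and 0 were higher, where 8.80% of all 19104 tested genes passed (4.57% higher, 4.23% lower). The member was UQCRC1. With the replicate number added to the fit as a block, 4 members were higher (UQCRHL, NDUFB1, ATP5G1 and ATP5H) and 1 lower (UQCRC1). In that fit 14.4% of all genes passed. At an unadjusted p under 0.05, 5 members were higher and 1 lower, where 23.2% of all genes passed (2231 higher, 2201 lower). In 7 of 79 members (8.86%) the groups did not overlap, where 29.0% of all genes did so (14.6% higher, 14.4% lower): NDUFB1, SDHA, UQCRH, COX7B and ATP5F1 were above the wild type in all 3 knockdown libraries, and UQCRC1 and COX6B1 below.

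The median change was 0.03 on the log2(TPM + 1) scale over the 79 members and 0.01 over all genes. Of the 79 members 52 were above 0, beside 9786 of all 19104 genes. The median size of the change, without its sign, was 0.05 in members, 0.16 in all genes and 0.13 in the 12979 genes of mean 5 TPM or more. A change above 0.5 in size was found in 1.27% of members (COX7A1) and in 9.49% of those 12979 genes. The median standard error was 0.10 in both. In 62 members the 95% interval of the change lay within 0.5 of no change, and in 77 within 1. These shares describe the list beside all genes, and no test compared it with them.

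**Figure D3:**
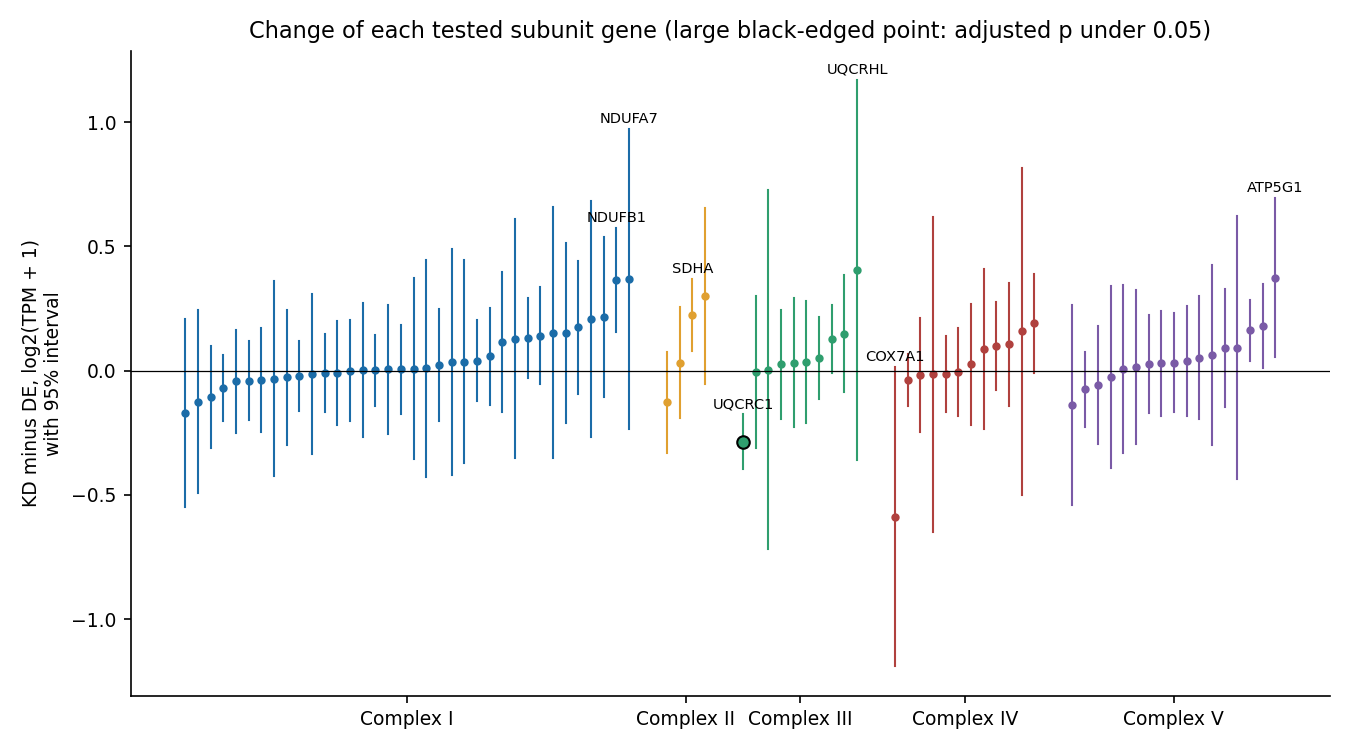
Change of each of the 79 tested members (KD minus DE on the log2(TPM + 1) scale, vertical axis) with its 95% interval, ordered within each complex. UQCRC1 (black-edged point) is the member past the adjusted threshold, and COX7A1 has the lowest value with an interval from -1.19 to 0.02.

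UQCRC1 encodes core protein 1 of complex III, a part of its matrix side needed for assembly. Its level was 346, 335 and 340 TPM in the wild-type libraries and 277, 284 and 277 in the knockdown libraries. All 3 knockdown libraries were below all 3 wild-type libraries, and the spread within a group was small beside the gap. The change was -0.29 (SE 0.05, 95% interval -0.40 to -0.18, adjusted p 0.0140), a knockdown to wild-type ratio of 0.820. The gene lies at chr3:48599002-48610976 on the minus strand (GRCh38, GENCODE 29), shares no exon sequence with overlapping genes and has no 50-base stretch found in another gene. Replicate 3 stood with the others, at 0.00 and -0.02 from the mean of replicates 1 and 2. The adjusted p with limma rose to 0.230 on deposited TPM and to 0.0514 without the variance trend. It was also above 0.05 when wild-type replicate 1 (0.0750), knockdown replicate 1 (0.0547) or knockdown replicate 2 (0.0641) was left out. In these fits the change stayed between -0.27 and -0.30. Over all alternatives the adjusted p ranged from 0.00943 to 0.230.

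The other core protein of complex III, UQCRC2, was at 99.0, 103 and 95.03 TPM against 108, 106 and 94.8, and the groups overlapped. Its change was 0.05, with a 95% interval of -0.11 to 0.22. UQCRFS1, the Rieske iron-sulfur protein, had a change of 0.15 (-0.09 to 0.38), and CYC1, which carries the heme that hands electrons to cytochrome c, one of 0.00 (-0.31 to 0.30). UQCR10, UQCR11, UQCRB and UQCRQ, small subunits of the complex, had changes between 0.00 and 0.03.

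UQCRH, the hinge protein of complex III, was at 312, 307 and 320 TPM in the wild type and 322, 354 and 351 in the knockdown. The groups did not overlap by a narrow margin, and the change was 0.13 (95% interval -0.01 to 0.26, adjusted p 0.248). UQCRHL, a nearly identical copy, was at 4.48, 5.12 and 9.28 TPM against 6.24, 7.12 and 12.6, and its groups overlapped. Replicate 3 was the highest library of each group. The change was the highest of the tested members, 0.41, with a wide interval of -0.36 to 1.17. In UQCRH, 29.4% of the 50-base stretches occur in genes elsewhere, so reads could be split between the copies and both levels are uncertain.

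In complex I, 0 of 36 members passed the adjusted threshold with limma (1 at an unadjusted p under 0.05, NDUFB1), 22 had a change above 0, and the median was 0.01. NDUFB1, an accessory subunit, was at 18.1, 17.9 and 19.8 TPM in the wild type and 21.9, 25.2 and 25.6 in the knockdown. Every knockdown library was above every wild-type library, with a change of 0.36 (SE 0.09, adjusted p 0.0533, just outside the threshold). It passed, at 0.0389, when only genes of mean 5 TPM or more were tested, and its adjusted p ranged from 0.0297 to 0.183 over all alternatives.

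NDUFS5 was the most abundant member of complex I, at 1054, 1054 and 1240 TPM against 1058, 1101 and 1181. The groups overlapped and the change was 0.00 (-0.20 to 0.20). The lowest was NDUFA9, which helps hold the arms of the complex together, at 2.54, 2.46 and 2.04 TPM against 1.999, 2.24 and 1.70. Same-strand exons of other genes cover 11.8% of its main transcript of 8363 bases, and 3.90% of its 50-base stretches occur in genes elsewhere. How such reads were counted is not given. NDUFA9 also had the lowest change of the complex, -0.17 (-0.55 to 0.21). NDUFA7 had the highest, 0.37, from 2.77, 1.61 and 1.24 TPM to 2.28, 3.51 and 2.20, with overlapping groups and an interval of -0.24 to 0.97.

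NDUFV1, which binds NADH, was at 96.1, 90.2 and 80.7 TPM against 97.8, 110 and 82.6. NDUFS1, the largest subunit with iron-sulfur clusters, was at 35.2, 35.5 and 32.0 TPM against 36.1, 35.6 and 33.8. In both genes the groups overlapped, and replicate 3 was the lowest in each group. Among the other accessory subunits, NDUFB10 (292 TPM on average), NDUFB7, NDUFB4, NDUFB11, NDUFA6, NDUFS6 and NDUFA8 (114 TPM) were the more abundant, with changes of -0.04 to 0.13. NDUFB9, NDUFS4, NDUFA1, NDUFA12, NDUFB3, NDUFB6, NDUFA2, NDUFB5, NDUFC1, NDUFA10, NDUFA3, NDUFA5, NDUFV3, NDUFB2 and NDUFC2 had mean levels of 74.9 down to 15.5 TPM and changes of -0.13 (NDUFC2) to 0.22 (NDUFV3). The groups overlapped in all 22 of these genes.

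In complex II, 0 of 4 members passed with limma, and SDHA was the 1 member at an unadjusted p under 0.05. SDHA, the flavoprotein that oxidises succinate, was at 29.9, 28.5 and 30.4 TPM in the wild type and 33.7, 35.6 and 35.0 in the knockdown. Its groups did not overlap and its change was 0.22 (SE 0.06, unadjusted p 0.00870, adjusted p 0.0764). In SDHA, 22.3% of 50-base stretches occur in genes elsewhere. SDHB, the iron-sulfur subunit, was at 76.7, 66.1 and 79.8 TPM against 71.5, 73.1 and 83.0, and the groups overlapped.

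SDHC and SDHD anchor the enzyme in the inner membrane. SDHC was at 43.9, 45.0 and 40.005 TPM against 40.2, 42.1 and 35.5, a change of -0.13 (-0.33 to 0.08). SDHD was at 50.04, 59.7 and 44.2 TPM against 71.3, 66.9 and 52.5, a change of 0.30 (-0.05 to 0.66). Both had overlapping groups, and the 2 anchors had changes of opposite sign. In SDHD, 20.7% of 50-base stretches occur in genes elsewhere, and same-strand exons of other genes cover 22.2% of the main transcript.

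In complex IV, 0 of 12 tested members passed with limma, 0 were at an unadjusted p under 0.05, and 6 had a change above 0. COX7A1, the heart and muscle form of subunit 7A, was at 7.78, 9.24 and 5.71 TPM in the wild type and 6.88, 3.64 and 3.86 in the knockdown. Knockdown replicate 1 lay within the wild-type range. The change of -0.59 was the lowest of all members, with a 95% interval of -1.19 to 0.02 (adjusted p 0.227). The common form COX7A2 was at 98.0, 108 and 97.0 TPM against 97.0, 109 and 95.8, and COX7A1 made up a mean of 6.94% of the pair's sum in the wild type and 4.58% in the knockdown.

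The other tissue forms were at or near 0 in both groups. COX6A2 and COX7B2 were listed at 0 in all 6 libraries, COX8C in 5 of 6 and COX4I2, outside the symbol rule, in 4 of 6. COX6B2, a testis form, made up 0.09% to 0.45% of its pair with COX6B1. NDUFA4L2, a paralog of NDUFA4, made up 0.73% to 1.34% of their summed level.

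COX6B1, a subunit on the intermembrane side, was at 221, 217 and 218 TPM against 212, 214 and 213. The groups did not overlap, but the change was only -0.04 (-0.14 to 0.07, adjusted p 0.694). COX7B was at 44.4, 54.5 and 51.1 TPM against 56.3, 57.6 and 57.0, with no overlap and a change of 0.19 (-0.01 to 0.39, adjusted p 0.236). COX5A and COX5B, subunits on the matrix side, had changes of 0.10 and -0.01. The small membrane subunits COX7C and COX6C had changes of 0.09 and -0.02, and COX7A2L, which takes part in supercomplexes with complex III, had 0.03. NDUFA4, first described in complex I and later placed in complex IV, was at 75.9, 89.4 and 72.7 TPM against 89.8, 90.1 and 76.2, with overlapping groups.

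In complex V, 0 of 17 tested members passed with limma. At an unadjusted p under 0.05, 3 were higher (ATP5F1, ATP5H and ATP5G1), beside 2231 of all 19104 genes. A change above 0 was found in 13 of the 17, beside 9786 of all genes. ATP5B was at 1303, 1330 and 1111 TPM in the wild type and 1392, 1402 and 1190.4 in the knockdown, with overlapping groups and a change of 0.09 (-0.15 to 0.33). ATP5A1, the alpha subunit that forms the catalytic head with it, was at 219, 231 and 175 TPM against 227, 224 and 166, a change of -0.02. ATP5C1, the gamma subunit of the central rotating stalk, had a change of -0.08 (-0.23 to 0.07). ATP5D and ATP5E, the other subunits of that stalk, had changes of 0.09 and -0.06.

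ATP5F1 (subunit b) and ATP5H (subunit d) belong to the outer stalk. ATP5F1 was at 127, 125 and 129 TPM against 144, 136 and 147, without overlap, a change of 0.16 (unadjusted p 0.0175, adjusted p 0.117). ATP5H was at 152, 170 and 162 TPM against 169, 188 and 191, a change of 0.18 (unadjusted p 0.0414, adjusted p 0.194), and its groups overlapped. ATP5O, the protein that joins this stalk to the head, and ATP5J, another part of it, had changes of 0.01 and 0.05.

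Subunit c, the rotor ring, is made from 3 genes that differ in their targeting peptides and encode the same mature protein. ATP5G1 was at 38.4, 42.3 and 31.7 TPM in the wild type and 51.5, 53.0 and 41.9 in the knockdown. Replicate 3 was the lowest in each group, and knockdown replicate 3 lay within the wild-type range. The change was 0.37 (SE 0.13, unadjusted p 0.0277, adjusted p 0.153), the highest of complex V.

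The other genes of subunit c had changes of 0.03 each, and no test compared the 3 genes. ATP5G2 was at 107, 111 and 128 TPM against 110, 123 and 118, and ATP5G3 at 64.9, 67.5 and 57.5 against 65.9, 68.2 and 59.9. ATP5G1 made up 17.3% ± 2.39 of the 3 genes' sum in the wild type and 21.1% ± 1.83 in the knockdown (SD, n = 3), with overlapping groups. ATP5G2 made up most of the sum, 53.4% ± 4.75 and 50.9% ± 2.62.

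ATP5I, a membrane subunit at the dimer interface, had the lowest change of complex V, -0.14 (-0.54 to 0.26), from 17.9, 15.6 and 22.1 to 14.5, 15.4 and 20.4 TPM. ATP5S had the lowest level among the tested genes of complex V, at 4.62, 4.90 and 4.22 against 5.65, 5.13 and 3.85 TPM. Both had overlapping groups. The membrane subunits ATP5L and ATP5J2 had changes of 0.04 and 0.01, and ATP5SL one of 0.03. ATPIF1, the inhibitor of ATP synthase hydrolysis, lies outside the symbol rule and was at 92.5, 85.9 and 134 TPM against 92.1, 98.7 and 127, with a change of 0.04.

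The members also differed between replicates. Replicate 3 was the lowest of its group in both groups for 38 of 79 members (48.1%), where this held for 31.5% of all tested genes and 37.8% of those of mean 5 TPM or more. It was the highest in both groups for 22 members (27.8%, against 17.1% and 19.9%). The median distance of replicate 3 from the mean of replicates 1 and 2, without sign, was 0.19 in the wild type and 0.21 in the knockdown on the log2 scale. Replicates 1 and 2 differed from each other by a median of 0.07 and 0.09. Over all tested genes the median distance of replicate 3 was 0.18 and 0.17, and that between replicates 1 and 2 was 0.12 and 0.12. For the median member replicate 3 lay farther from the others than the knockdown mean lay from the wild-type mean (0.05). These measures are unlike, since a single library varies more than a group mean and a shift shared by both groups cancels between the means.

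The shift of replicate 3 was alike in both groups. Over the 79 members its values in the wild type and the knockdown had a Pearson r of 0.91 and a Spearman rho of 0.92, given as a description across genes that share 6 libraries. Over all tested genes these were 0.28 and 0.43, and over genes of mean 5 TPM or more 0.54 and 0.66. In each complex some members were lowest and others highest in replicate 3 of both groups.

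The members with a shift above 0.5 in both groups were COX8A and COX6A1, which were low in replicate 3, and UQCRB and UQCRHL, which were high. That was 2.53% of the 79 members in each direction, near the share of all tested genes (2.84% low, 1.96% high). Among genes of mean 5 TPM or more it was 1.90% and 1.14%. COX8A, whose promoter window is printed above, was at 341, 301 and 199 TPM in the wild type and 347, 383 and 214 in the knockdown. COX6A1 was at 79.7, 76.2 and 48.0 TPM against 74.9, 80.9 and 46.6. In COX6A1, 34.6% of 50-base stretches occur in genes elsewhere. Same-strand exons of other genes cover 30.6% of its main transcript and 34.5% of that of COX8A, so both levels are uncertain. UQCRB, a ubiquinone-binding protein of complex III, was at 35.0, 33.3 and 63.8 against 35.0, 35.9 and 59.8. NDUFAB1, the acyl carrier protein of complex I that falls outside the symbol rule, was likewise low in replicate 3, as COX8A and COX6A1 were, at 173, 159 and 88.6 against 172, 173 and 86.8 TPM.

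**Figure D4:**
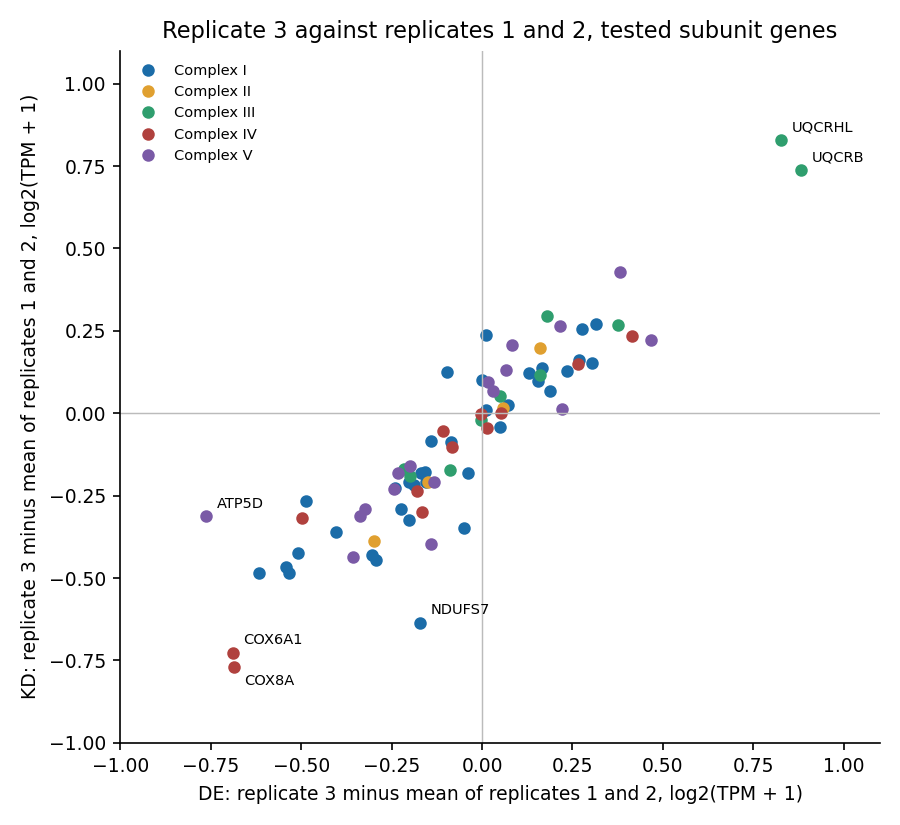
Distance of replicate 3 from the mean of replicates 1 and 2 in the wild type (DE, horizontal axis) and the knockdown (KD, vertical axis), on the log2(TPM + 1) scale, for the 79 tested members coloured by complex. The points lie along the diagonal, with COX8A and COX6A1 low and UQCRB and UQCRHL high in both groups.

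The MT- share was also highest in replicate 3 of both groups, and rows for nuclear pseudogenes of mitochondrial genes took 0.470% and 0.504% of rescaled TPM there, against 0.188% to 0.231% in the other 4 libraries. The part of these in the shift was not tested. The shift had a Spearman rho of -0.10 with the GC content and -0.07 with the length of the main transcript over the 79 members. Without replicate 3 of both groups the member count was the same, 1 lower (UQCRC1) and 0 higher.

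The mitochondrially encoded subunits of the same complexes stood far above the nuclear ones on the deposited scale. The ratio of summed TPM, mitochondrial over nuclear, was 28.8 to 56.4 for the 7 MT- genes of complex I and 8.32 to 14.2 for the single MT- gene of complex III. It was 97.4 to 191 for the 3 of complex IV and 14.1 to 27.9 for the 2 of complex V. Replicate 3 had the highest ratio in each group for all 4 complexes, and the ranges of the groups overlapped.

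Other genes of the pathway were counted as higher or lower at the same adjusted threshold, where 4.57% of all genes were higher and 4.23% lower. Of 51 assembly factors, 1 was higher and 1 lower. SDHAF3, an assembly factor of complex II, rose from 19.7, 19.5 and 21.6 to 27.6, 27.1 and 25.4 TPM (change 0.38, adjusted p 0.0260). ATPAF2, a chaperone for the alpha subunit of ATP synthase, fell from 26.2, 25.3 and 27.8 to 18.4, 17.4 and 18.1 TPM (change -0.53, adjusted p 0.00690). Neither gene's groups overlapped.

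Of 13 transcription factors and coactivators of the pathway, 2 were called higher and 0 lower, and 10 had a change above 0. PPARGC1B, a coactivator of genes for mitochondria, rose from 2.14, 2.37 and 1.84 to 4.13, 4.62 and 5.07 TPM (change 0.85, adjusted p 0.0160). PPRC1, of the same family, rose from 80.3, 71.0 and 85.6 to 96.5, 109 and 121 TPM (change 0.45, adjusted p 0.0458). Factors whose motifs are shown above had changes of 0.21 (NRF1), -0.03 (GABPA) and 0.03 (YY1), and none of the 3 passed.

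Of 16 genes of the TCA cycle and 13 of coenzyme Q synthesis, 0 passed in either direction with limma; at an unadjusted p under 0.05, 3 of the TCA cycle were higher and 1 lower, and 0 of coenzyme Q synthesis. The 7 tested carriers and subunits outside the symbol rule also had 0 calls (2 lower at an unadjusted p under 0.05). CYCS, cytochrome c itself, was at 126, 140 and 92.0 TPM against 173, 161 and 119, a change of 0.34. Of 76 mitochondrial ribosomal proteins, 3 were higher and 3 lower, among them MRPL9, which fell from 92.2, 93.4 and 76.0 to 53.5, 50.1 and 46.8 TPM. Of 79 cytosolic ribosomal proteins, 2 were higher (RPL26 and RPL39L) and 0 lower. Median changes were 0.09 for the mitochondrial and 0.03 for the cytosolic ribosomal proteins, and 0.07 for the assembly factors, beside 0.03 for the members.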

How the data were processed

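Total RNA was sequenced from 6 libraries, 3 in each of 2 groups. The authors deposited 1 table of TPM, in which each library sums to 1000000; HISAT2 2.1.0, featureCounts, DESeq2 and GRCh38 are listed in the submitters' processing notes, without roles. The sources used here do not give the strand setting, the annotation or the depth. TPM keep no depth, so no interval for counting error is given.

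The 37 MT- rows were left out and the rest rescaled to 1000000. Genes reaching 1 TPM in 3 or more libraries were tested on log2(TPM + 1), which understates changes of low genes, with limma 3.58.1 in R 4.3.3 (group as the term, eBayes with trend, 2-sided), Benjamini-Hochberg adjusted over 19104 genes, threshold 0.05. Members and gene lists were chosen with earlier results of these data known. Named members are those past the threshold, the highest, lowest, most raised and most lowered of each complex, isoform pairs and complex II; others, such as those under an unadjusted p of 0.05 or of large replicate shift, were chosen after their values were seen. Symbols were matched to GENCODE 29 for all 86 members, 18 by an older symbol. On simulated data of 18523 genes the fit recovered 29% of changes of 0.5 and 86% of changes of 1 (log2), with 6 false calls. There 18323 genes were unchanged, the changed genes were drawn only from those above a set level, and noise was independent between libraries. The recovered shares therefore do not cover low genes or a shift shared by same-numbered libraries. Alternatives covered scaling, pseudocount, filter, variance model, replicate block and left-out libraries. Some members are not reported here by name.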

Additional observations from a re-analysis of the deposited data

How the results depend on the processing

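The count of all genes past the threshold was 1682; it was 579 on deposited TPM with MT- rows, 1066 with no filter and 2760 with a replicate block. It ranged from 572 to 1150 when 1 library was left out: 709 without wild-type replicate 1, 892 without wild-type replicate 2, 973 without knockdown replicate 1, 572 without knockdown replicate 2 and 1080 without knockdown replicate 3. The count of members higher in the knockdown was 0; it was 1 (NDUFB1) among genes of mean 5 TPM or more and 4 (UQCRHL, NDUFB1, ATP5G1 and ATP5H) with the replicate block, at adjusted p of 0.0489, 0.0297, 0.0110 and 0.0392. The count lower was 1 (UQCRC1); it was 0 on deposited TPM and without the variance trend, and 0 to 1 with 1 library left out. The cause was not tested. Same-numbered libraries correlated at 0.08, 0.11 and 0.28 in their deviations. Each wild-type library correlated best with the knockdown library of its number, but knockdown replicate 1 correlated best with wild-type replicate 2 (0.10). The numbers were not treated as pairs, so a shift shared by same-numbered libraries stays in the standard errors of the main fit.

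The members' median change ranged from 0.02 to 0.07 with 1 library left out. Without replicate 3 of both groups COX7A2 turned to 0.0013 and NDUFS5 to 0.034. With 1 library left out, changes that turned sign ranged from -0.024 to 0.10 (ATP5G2), -0.034 to 0.085 (ATP5G3), -0.032 to 0.20 (ATP5S), -0.24 to 0.23 (COX6A1), -0.063 to 0.042 (COX7A2), -0.071 to 0.41 (COX8A), -0.044 to 0.077 (NDUFS5) and -0.047 to 0.086 (SDHB). Over the 26 named members and all alternatives, 409 of 439 values kept their direction and side of the threshold, 20 turned sign, 5 gained and 5 lost the threshold. TPM keep no depth, so what depth limits cannot be given.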
